A study of Homo sapiens with 12 samples.

Results

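The transcriptional effect of the ERK inhibitor GDC-0994 that 2 anaplastic thyroid carcinoma cell lines have in common was described by averaging the log2 effect of the drug in KHM-5M and in TTA-1 over all 12 RNA-seq libraries. A gene was counted as shared when it was called in each line on its own, at an adjusted p below 0.05, and moved the same way in both. Of 16218 genes tested, 220 fell in both lines and 124 rose in both lines, which makes 344 shared genes, 328 of them protein coding. The groups were KHM-5M cells, labelled BRAF V600E and grown in RPMI-1640 with 10% fetal bovine serum, and TTA-1 cells, labelled BRAF wild type and grown in DMEM with 10% fetal bovine serum. Each line was treated for 24 h with 1 µM GDC-0994 or with the vehicle DMSO, with 3 libraries in each of the 4 groups. The series asks how the inhibitor acts on tumour cells with and without a BRAF mutation. Each genotype is represented by 1 line, so genotype, line and medium cannot be told apart. Nothing in the labels says that the 3 libraries of a group came from separate cultures, so p-values may measure technical spread only.

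GDC-0994, also called ravoxertinib, is an ATP-competitive inhibitor of the ERK kinases, the last step of the RAS-RAF-MEK-ERK cascade. BRAF V600E is a mutant RAF kinase that signals without RAS, and it is common in anaplastic thyroid carcinoma, a dedifferentiated tumour of the thyroid follicular epithelium. Active ERK phosphorylates ETS-family and other transcription factors and releases the repressor CIC from its targets, which switches on immediate-early genes such as EGR1 and FOS, the genes of the PEA3 factors ETV4 and ETV5, and the genes of its own inhibitors, among them the dual-specificity phosphatases and the Sprouty proteins.

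Library totals ranged from 14952970 to 18389915 counts. The labelled thyroid origin was only partly visible: 4 of 12 thyroid follicular markers had enough counts to be tested, TG was at or near 0 in both lines, and the transcription factor gene PAX8 had a mean of 120.2 CPM with GDC-0994 and 210.2 CPM with DMSO in KHM-5M but 3.65 CPM and 3.59 CPM in TTA-1. HHEX had 9.49 CPM with GDC-0994 and 21.3 CPM with DMSO in KHM-5M and 17.8 CPM and 16.0 CPM in TTA-1. FOXE1 and SLC26A4, the others tested, had at most 2.46 CPM in any group. Markers of blood, endothelial and C cells summed to at most 3.25 CPM in any group. The melanocyte or neural list summed to 5.61 CPM with GDC-0994 and 4.23 CPM with DMSO in KHM-5M and to 11.2 CPM and 10.1 CPM in TTA-1, mostly MITF. The fibroblast list summed to 1859 CPM with GDC-0994 and 709.5 CPM with DMSO in KHM-5M, nearly all of it COL1A1, and to 3.62 CPM and 2.92 CPM in TTA-1. DCN was at or near 0, while LUM had 41.1 CPM with GDC-0994 and 4.73 CPM with DMSO in KHM-5M. The part of these marker levels in the results was not tested. One library stood apart: TTA-1 DMSO replicate 2 differed from replicate 1 by a chi-square of 30.4 per degree of freedom, against 2.29 to 14.8 for the other within-group pairs. Its deviations from its group correlated with gene GC content at -0.46, against 0.441 for replicate 1. Without it, TTA-1 had 2620 called genes in place of 556, and the shared genes numbered 882 falls and 506 rises, which held 219 of the 220 falls and 122 of the 124 rises. In bulk RNA, fewer cells of a kind and less RNA per cell cannot be told apart.

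The drug changed far more genes in KHM-5M than in TTA-1, so TTA-1 set the upper limit of the shared set. In KHM-5M 4078 genes fell (25.1% of those tested) and 3991 rose (24.6%), whereas in TTA-1 364 fell (2.24%) and 192 rose (1.18%). The genes that moved the same way in both lines were 1.36% of those tested for falls and 0.765% for rises, and 62 genes (0.382%) were called in opposite directions. Of the TTA-1 falls 60.4% also fell in KHM-5M, and of the TTA-1 rises 64.6% also rose there, while 5.39% of the KHM-5M falls and 3.11% of the KHM-5M rises were shared. The average effect alone drew mostly on KHM-5M. It was called for 3434 falls (21.2%) and 2875 rises (17.7%), but 84.8% of these 6309 calls were in genes called in KHM-5M and not in TTA-1, and 5.45% were shared. All 344 shared genes were also called by the average effect.

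For 168 of the 220 shared falls and 103 of the 124 shared rises the effect was the larger in KHM-5M. The median log2 effect of the shared falls was -1.004 in KHM-5M and -0.65 in TTA-1, and of the shared rises 1.19 in KHM-5M and 0.60 in TTA-1, beside medians of 0.02 and 0.01 over all genes tested. The difference of the effects was called for 27.9% of all genes tested, and for 105 of the shared falls, of which 97 were larger in KHM-5M and 8 larger in TTA-1. It was called for 65 of the shared rises, each larger in KHM-5M. Past a 2-fold change in both lines were 46 falls (0.284% of all genes tested) and 19 rises (0.117%). The GDC-0994 libraries lay wholly below the DMSO libraries in both lines for 218 of the 220 falls and wholly above for 124 of the 124 rises, beside 4.67% and 4.7% of all genes tested, a separation that the calls themselves largely fix. The leading falls and rises by effect were also picked for no overlap, so their separation lends no support. Across all 16218 genes the 2 effects correlated with a Pearson's r of 0.185 and a Spearman's rho of 0.233, which describes genes, not independent replicates. In the main model the 4 groups share 1 estimate of the spread, so the TTA-1 calls rest in part on the spread of the KHM-5M libraries. With 1 model fitted per line, KHM-5M had 8966 called genes in place of 8069 and TTA-1 had 212 in place of 556. Of the 74 named genes called in both lines 33 then lost the call, and 30 of these also lost it without 1 library. The other 3 were DUSP6, PDGFA and PARP9. Where the losses of a gene are listed below, the replicate block is left out, as is 1 model per line unless named. With 1 model per line the larger adjusted p was, for example, 0.138 for MCL1, 0.208 for DUSP8 and 0.188 for ADAMTS15. It was 0.159 for CCNG2 and 0.0769 for STC1, so the ranges given for these genes are exceeded there.

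**Figure D1:**
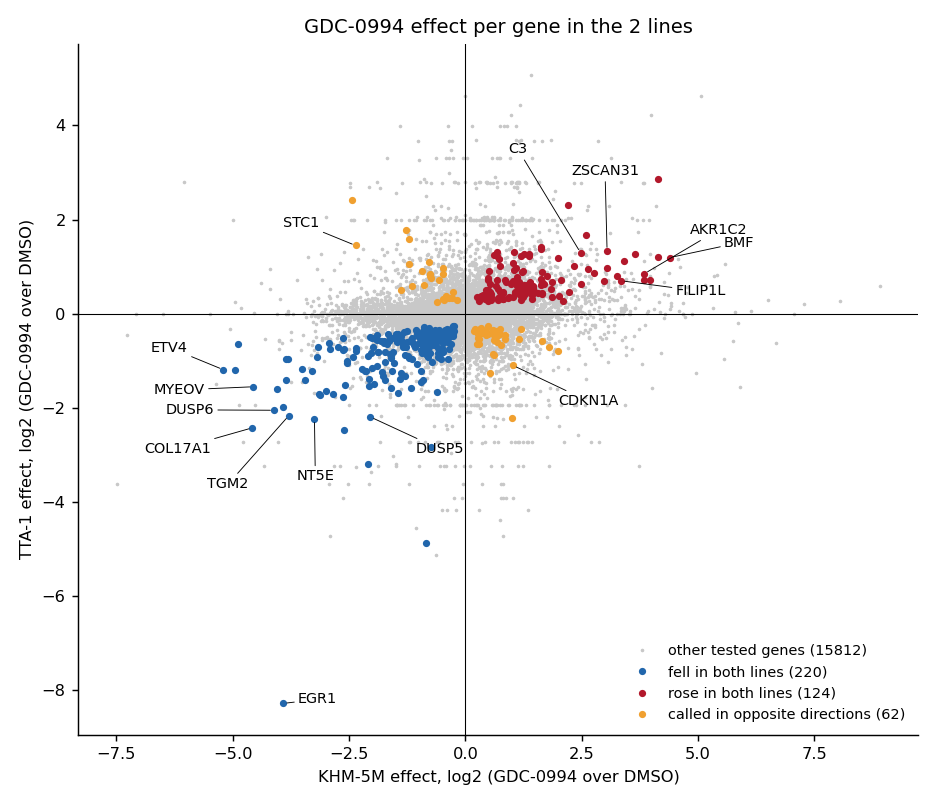
GDC-0994 effect in TTA-1 (vertical, log2 of GDC-0994 over DMSO) against the effect in KHM-5M (horizontal, same scale) for 16218 genes, 1 point each, with the 220 shared falls in blue, the 124 shared rises in red and the 62 genes called in opposite directions in orange. The coloured clouds are wider along the horizontal axis, and EGR1 is the one labelled fall that lies lower in TTA-1 than in KHM-5M by more than 4 log2 units.

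Most genes of a list used to read out MAPK activity fell in both lines. These are RNA levels, and ERK activity itself was not measured in these libraries. Of 10 genes of a published MAPK output score, 8 fell in both lines, none rose in both and none went opposite ways, beside 1.36% of all genes tested that fell in both. The median average effect of the 10 was -1.96, against 0.01 over all genes. The list was drawn up as a measure of MAPK activity in tumours, and like the others here it was chosen with results of these data known. The ERK phosphatase gene DUSP6 (ENSG00000139318, chr12:89347232-89353271, minus strand, GRCh38) had 2.11, 2.21 and 1.35 CPM in the GDC-0994 libraries, against 34.5, 35.03 and 29.7 CPM in the DMSO libraries of KHM-5M. In TTA-1 it had 0.6001, 1.14 and 0.0691 CPM in the GDC-0994 libraries, against 2.41, 2.24 and 2.96 CPM in the DMSO libraries. Its GDC-0994 libraries were the lower in both lines with no overlap, and the TTA-1 library GDC-0994 replicate 3 was the lowest of all. DUSP6 fell with effects of -4.11 ± 0.25 in KHM-5M and -2.05 ± 0.40 in TTA-1 (log2 ± SE; larger of the 2 edgeR adjusted p = 0.00707). With 1 model per line that p was 0.0822.

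ETV4 (ENSG00000175832, chr17:43527844-43579620, minus strand), a PEA3 transcription factor gene, showed the deepest fall in KHM-5M among the named genes. It had 3.22, 4.04 and 3.01 CPM in the GDC-0994 libraries, against 128, 123 and 129 CPM in the DMSO libraries of KHM-5M. TTA-1 cells had 12.1, 11.8 and 8.85 CPM in the GDC-0994 libraries, against 26.2, 21.8 and 26.5 CPM in the DMSO libraries. The groups did not overlap in either line, but the change was far larger in KHM-5M, with effects of -5.20 ± 0.14 in KHM-5M and -1.19 ± 0.12 in TTA-1 (larger adjusted p = 2.39e-05) and a called difference of -4.01 (adjusted p = 9.66e-11). Its relative ETV5 followed the same pattern, with effects of -3.86 ± 0.12 in KHM-5M and -0.96 ± 0.10 in TTA-1. The cyclin D1 gene CCND1, which drives entry into the cell cycle, had 83.1, 81.3 and 73.6 CPM with GDC-0994, against 532, 547 and 509.98 CPM with DMSO in KHM-5M. The TTA-1 values were 139.8, 139 and 124 CPM with GDC-0994, against 220.1, 229.8 and 204 CPM with DMSO. Every GDC-0994 library was below every DMSO library, and CCND1 fell with effects of -2.74 ± 0.08 in KHM-5M and -0.70 ± 0.07 in TTA-1 (larger adjusted p = 2.68e-05).

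The Sprouty gene SPRY4, whose product restrains RAS and RAF signalling, had 4.48, 5.87 and 5.22 CPM with GDC-0994, against 47.2, 45.5 and 42.98 CPM with DMSO in KHM-5M. In TTA-1 the libraries gave 4.13, 3.28 and 2.63 CPM with GDC-0994, against 10.8, 12.3 and 10.5 CPM with DMSO. It fell with effects of -3.12 ± 0.14 in KHM-5M and -1.74 ± 0.16 in TTA-1, and PHLDA1, which encodes a pleckstrin-homology-like protein, with effects of -2.63 ± 0.08 in KHM-5M and -1.77 ± 0.08 in TTA-1 (larger adjusted p = 5.10e-06 and 9.13e-10). In PHLDA1 the replicates were tight, with 37.4 ± 0.679 CPM with GDC-0994 and 231 ± 0.717 CPM with DMSO in KHM-5M and 26.6 ± 2.08 CPM with GDC-0994 and 90.6 ± 6.87 CPM with DMSO in TTA-1 (SD, n = 3). The remaining shared members were EPHA2, an ephrin receptor kinase gene, with -1.55 ± 0.08 in KHM-5M and -0.82 ± 0.08 in TTA-1, and DUSP4, a nuclear phosphatase gene, with -2.64 ± 0.15 in KHM-5M and -0.52 ± 0.11 in TTA-1. The DUSP4 call was lost without TTA-1 GDC-0994 replicate 3 (0.0717). SPRY2 fell and EPHA4 rose in KHM-5M, and neither was called in TTA-1. SPRY2 averaged 2.76 ± 0.418 CPM with GDC-0994 and 3.62 ± 0.281 CPM with DMSO in TTA-1 (SD, n = 3), with an effect there of -0.39 ± 0.15, and the difference between the lines was called (-2.47, adjusted p = 3.49e-08). EPHA4 was near the detection limit, at 1.47 CPM or less in every library, and its difference between the lines was not called (2.52, adjusted p = 0.103).

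**Figure D2:**
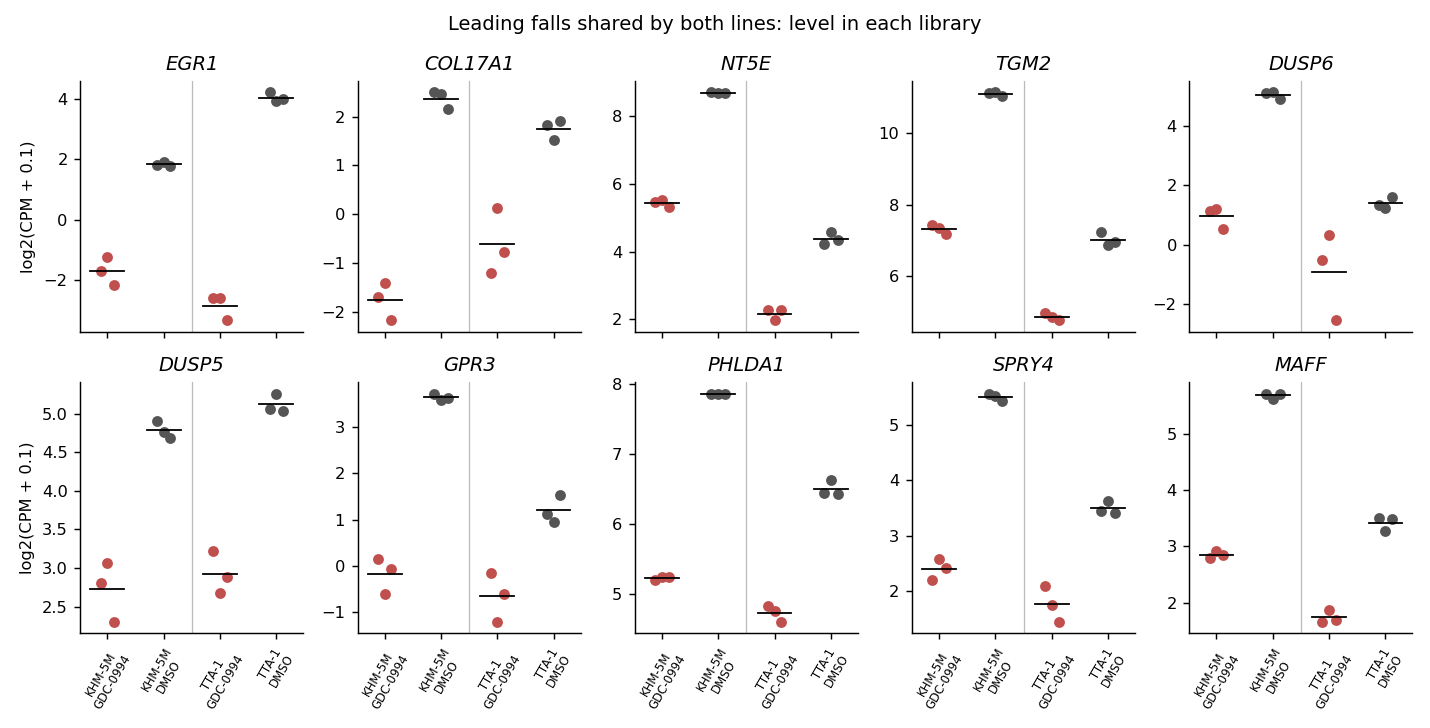
Level in each library, as log2(CPM + 0.1), of the 10 protein-coding shared falls averaging 1 CPM or more in each line's DMSO libraries and the largest smaller-of-the-2 effects, with GDC-0994 libraries in red, DMSO libraries in grey, 3 per group, and a bar at the group mean of the log values. Only genes with no overlap between GDC-0994 and DMSO libraries in either line were eligible. The 3 GDC-0994 points of a line therefore lie below its 3 DMSO points in each panel. An example is DUSP5, at 4.85 to 8.24 CPM with GDC-0994 and 25.7 to 29.8 CPM with DMSO in KHM-5M.

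Among 20 other feedback genes of the pathway the response was mixed. Here 5 fell in both lines, 1 rose in both and 2 went in opposite directions, beside 1.36%, 0.765% and 0.382% of all genes tested. A further 8 were called in KHM-5M only, as were 7663 of all 16218 genes, and 4 in neither. The median average effect was -0.25. DUSP5, the gene of a nuclear ERK phosphatase (ENSG00000138166, chr10:110497838-110511544), had 6.91, 8.24 and 4.85 CPM with GDC-0994, against 29.8, 27.1 and 25.7 CPM with DMSO in KHM-5M. For TTA-1 the values were 9.202, 6.28 and 7.26 CPM with GDC-0994, against 33.3, 38.2 and 32.7 CPM with DMSO. The groups were apart in both lines, with effects of -2.04 ± 0.16 in KHM-5M and -2.19 ± 0.16 in TTA-1 (larger adjusted p = 5.88e-07) and a difference of 0.16, 95% interval -0.33 to 0.64. PHLDA2, a relative of PHLDA1, fell with effects of -1.29 ± 0.16 in KHM-5M and -1.33 ± 0.17 in TTA-1, and ERRFI1, an inhibitor of the EGF receptor, with effects of -0.38 ± 0.07 in KHM-5M and -0.45 ± 0.07 in TTA-1. The differences between lines were 0.04, 95% interval -0.46 to 0.53, for PHLDA2 and 0.07, 95% interval -0.13 to 0.28, for ERRFI1. DUSP7, a cytoplasmic ERK phosphatase gene, fell with effects of -0.89 ± 0.08 in KHM-5M and -0.34 ± 0.08 in TTA-1, and SPRED1, whose product brings neurofibromin to RAS, with effects of -0.87 ± 0.09 in KHM-5M and -0.49 ± 0.10 in TTA-1.

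Most of the 20 feedback genes did not fall in both lines. In KHM-5M 10 of them fell and 6 rose, beside 25.1% and 24.6% of all genes tested. DUSP16 (0.47), PHLDA3 (0.41) and NF1 (0.27) rose in KHM-5M and were not called in TTA-1. DUSP8, a phosphatase gene directed at JNK and p38, rose by 0.68 ± 0.13 in KHM-5M and 1.23 ± 0.30 in TTA-1. DUSP1, an immediate-early phosphatase gene, averaged 40.6 ± 2.03 CPM with GDC-0994 and 32.2 ± 1.89 CPM with DMSO in KHM-5M and 27.7 ± 2.13 CPM with GDC-0994 and 36.4 ± 0.342 CPM with DMSO in TTA-1 (SD, n = 3). It thus rose in KHM-5M and fell in TTA-1, with effects of 0.34 ± 0.09 in KHM-5M and -0.39 ± 0.09 in TTA-1 (larger adjusted p = 0.0188). TRIB1, a pseudokinase gene, also went opposite ways, with 0.67 ± 0.10 in KHM-5M and -0.37 ± 0.10 in TTA-1. Several of these calls rested on single libraries. The larger adjusted p passed 0.05 for DUSP7 without TTA-1 DMSO replicate 1 or 3 or TTA-1 GDC-0994 replicate 1 or 3 or with GC and length trends removed (0.0556 to 0.0905), for SPRED1 without TTA-1 GDC-0994 replicate 3 (0.0598). It did so for DUSP8 without TTA-1 DMSO replicate 3 or TTA-1 GDC-0994 replicate 1 or 3 or with limma on FPKM (0.0522 to 0.165), for DUSP1 without TTA-1 DMSO replicate 3 or TTA-1 GDC-0994 replicate 1 (0.0645 to 0.0804) and for TRIB1 without KHM-5M DMSO replicate 1 or 2 or 3 or KHM-5M GDC-0994 replicate 2 or 3 or TTA-1 DMSO replicate 1 or 3 or TTA-1 GDC-0994 replicate 1 or 2 or 3 or with another scaling or no filter or thinning (0.0507 to 0.188).

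The immediate-early and AP-1 genes are switched on within minutes of ERK activation. Of 23 tested, 12 fell in both lines, beside 1.36% of all genes, and none rose in both, 8 were called in KHM-5M only, 2 in TTA-1 only and 1 in neither, with a median average effect of -0.58. EGR2, EGR3 and EGR4 had too few counts to be tested. EGR1 (ENSG00000120738, chr5:138465490-138469315, plus strand), a zinc-finger transcription factor gene, had 0.211, 0.332 and 0.123 CPM in the GDC-0994 libraries, against 3.44, 3.69 and 3.32 CPM in the DMSO libraries of KHM-5M. In TTA-1 it had 0.0667, 0.0669 and 0 CPM in the GDC-0994 libraries, against 18.4, 14.995 and 15.6 CPM in the DMSO libraries. It was close to undetectable under the drug in both lines, and the drop was steeper in TTA-1, where DMSO cells had more of it. EGR1 fell by -3.91 ± 0.30 in KHM-5M (larger adjusted p = 1.07e-08). The TTA-1 libraries held 2 counts with GDC-0994 and 758 with DMSO, a ratio of DMSO over GDC-0994 of 362.7 (95% counting interval 100.1 to 3001, counting error only).

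FOSL1 (ENSG00000175592, chr11:65892049-65900573, minus strand) encodes the AP-1 subunit FRA1, which ERK also stabilises as a protein. It had 35.96, 34.4 and 33.2 CPM in the GDC-0994 libraries, against 579, 586 and 551 CPM in the DMSO libraries of KHM-5M. TTA-1 cells had 93.6, 75.5 and 60.7 CPM in the GDC-0994 libraries, against 278, 158 and 258 CPM in the DMSO libraries. The groups did not overlap, although the TTA-1 DMSO libraries spread widely, with replicate 2 the lowest. The effects were -4.05 ± 0.18 in KHM-5M and -1.59 ± 0.17 in TTA-1 (larger adjusted p = 2.68e-05). FOS, another AP-1 subunit gene, fell with effects of -3.15 ± 0.35 in KHM-5M and -1.70 ± 0.33 in TTA-1, and MAFF, a small MAF factor gene, with effects of -2.85 ± 0.11 in KHM-5M and -1.71 ± 0.13 in TTA-1 (larger adjusted p = 0.00677 and 5.88e-07).

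MYC, whose product drives growth and ribosome production, had 67.7, 59.5 and 61.5 CPM with GDC-0994, against 105, 98.2 and 99.5 CPM with DMSO in KHM-5M. The TTA-1 values were 455, 433 and 362 CPM with GDC-0994, against 648, 540.5 and 616 CPM with DMSO. The GDC-0994 libraries were the lower in both lines, with effects of -0.68 ± 0.09 in KHM-5M and -0.53 ± 0.09 in TTA-1 (larger adjusted p = 0.00231) and a difference of -0.15, 95% interval -0.42 to 0.12. Of 4 Krüppel-like factor genes in the list, KLF4 and KLF2 fell in both, with effects of -1.87 ± 0.19 in KHM-5M and -0.81 ± 0.14 in TTA-1 for KLF4 and of -1.58 ± 0.23 in KHM-5M and -1.21 ± 0.22 in TTA-1 for KLF2. KLF6 (-0.77 ± 0.06 in KHM-5M and 0.07 ± 0.06 in TTA-1) and KLF10 were called in KHM-5M only. IER3, a stress-response gene, fell with effects of -1.22 ± 0.11 in KHM-5M and -0.93 ± 0.11 in TTA-1. Also lower in both were JUN, the partner of FOS, with effects of -0.36 ± 0.10 in KHM-5M and -0.47 ± 0.10 in TTA-1, IER2 with -0.58 ± 0.11 in KHM-5M and -0.57 ± 0.12 in TTA-1, IER5 with -1.26 ± 0.13 in KHM-5M and -0.59 ± 0.13 in TTA-1 and ARC with -1.77 ± 0.25 in KHM-5M and -1.32 ± 0.28 in TTA-1. The call was lost for JUN without KHM-5M DMSO replicate 1 or KHM-5M GDC-0994 replicate 3 or TTA-1 DMSO replicate 1 or TTA-1 GDC-0994 replicate 1 or 3 (0.0511 to 0.102), for IER2 without TTA-1 DMSO replicate 3 or TTA-1 GDC-0994 replicate 1 (0.0566 to 0.0712). It was also lost for IER5 without TTA-1 DMSO replicate 1 or TTA-1 GDC-0994 replicate 2 or 3 (0.0563 to 0.0869) and for ARC without TTA-1 DMSO replicate 3 or TTA-1 GDC-0994 replicate 2 or 3 (0.0536 to 0.0655). Not all of the family behaved this way, since JUND rose in KHM-5M (0.67 ± 0.11) with an effect in TTA-1 of -0.30 ± 0.11, and ATF3, a stress-induced factor gene, rose in KHM-5M (1.15 ± 0.11) with -0.01 ± 0.10 in TTA-1. The difference was called for JUND (0.97, adjusted p = 0.000147) and ATF3 (1.16, adjusted p = 1.12e-05). FOSL2 (0.34), JUNB (0.48) and ZFP36 (0.48) also rose in KHM-5M and were not called in TTA-1.

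**Figure D3:**
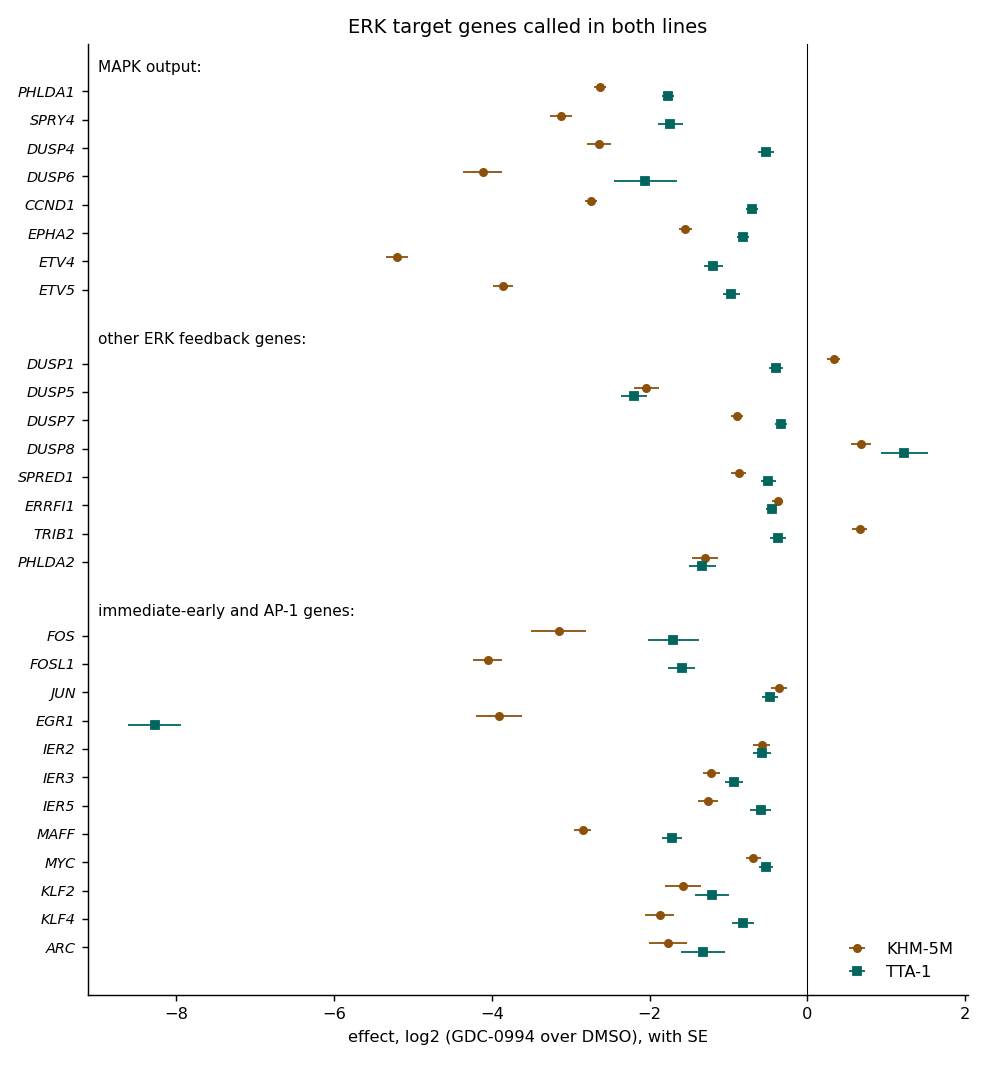
GDC-0994 effect (log2 of GDC-0994 over DMSO, horizontal axis, bars are SE) in KHM-5M (circles) and TTA-1 (squares) for the members of 3 ERK target lists that were called in both lines. Most pairs lie left of 0 with the KHM-5M effect the larger, EGR1 has the larger fall in TTA-1, DUSP8 lies right of 0 in both lines, and DUSP1 and TRIB1 lie on either side of it.

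The promoters of some of these genes carry short sequences known to bind the factors through which ERK acts. The windows below are examples, picked because they hold such a motif and belong to falls described here. Windows without a motif, windows of rises and some other falls with a motif are not shown. Each window is the 250 bases before a RefSeq transcription start (GRCh38.p14), written 5′ to 3′ on the strand of the gene, with motif matches in capitals. Both strands were searched. The motifs were the CIC octamers TGAATGAA, TGAATGGA, TCAATGAA and TCAATGGA, which occur in 3.18% of 35116 promoter windows of this length, the AP-1 sites TGACTCA and TGAGTCA (4.2%), the CRE TGACGTCA (1.65%), the ETS site CCGGAAG (8.52%), the E box CACGTG (6.34%) and the SRF CArG box (1.16%). No match of one motif overlapped a match of another in the windows of the named shared genes, and an E box in the MAFF window is left in lower case. Windows were found for 157 of the 220 falls (71.4%) and 96 of the 124 rises (77.4%), below 80%, so a comparison of motif shares between shared genes and the rest is void and is not given.
EGR1, chr5:138465229-138465478, plus strand, CArG boxes at 105 to 96 and 83 to 74 bases before the start: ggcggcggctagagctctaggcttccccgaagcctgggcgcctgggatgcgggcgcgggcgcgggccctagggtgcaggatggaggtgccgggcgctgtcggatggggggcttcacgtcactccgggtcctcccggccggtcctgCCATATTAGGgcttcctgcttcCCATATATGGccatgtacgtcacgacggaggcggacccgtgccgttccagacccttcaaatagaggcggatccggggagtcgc
DUSP6, chr12:89352502-89352751, minus strand, a CIC octamer on the opposite strand at 24 to 17 bases before the start: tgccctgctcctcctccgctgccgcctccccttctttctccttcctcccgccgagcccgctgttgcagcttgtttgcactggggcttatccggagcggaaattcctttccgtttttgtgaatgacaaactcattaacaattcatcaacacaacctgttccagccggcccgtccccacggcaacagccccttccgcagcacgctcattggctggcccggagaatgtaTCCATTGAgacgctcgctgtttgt
MAFF, chr22:38201744-38201993, plus strand, a CRE at 54 to 47 and a CIC octamer at 27 to 20 bases before the start: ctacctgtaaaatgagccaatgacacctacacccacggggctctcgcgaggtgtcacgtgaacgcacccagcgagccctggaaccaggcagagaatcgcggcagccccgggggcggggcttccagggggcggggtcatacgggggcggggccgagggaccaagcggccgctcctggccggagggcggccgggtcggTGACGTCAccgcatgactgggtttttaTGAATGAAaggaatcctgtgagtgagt
EPHA2, chr1:16156070-16156319, minus strand, a CRE at 51 to 44 and a CIC octamer at 34 to 27 bases before the start: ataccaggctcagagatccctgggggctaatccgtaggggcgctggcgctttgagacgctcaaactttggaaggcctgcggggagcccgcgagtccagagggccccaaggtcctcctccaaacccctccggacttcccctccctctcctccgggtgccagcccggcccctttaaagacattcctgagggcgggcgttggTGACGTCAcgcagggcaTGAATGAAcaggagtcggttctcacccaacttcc
PLAUR, chr19:43670170-43670419, minus strand, an AP-1 site at 186 to 180 bases before the start: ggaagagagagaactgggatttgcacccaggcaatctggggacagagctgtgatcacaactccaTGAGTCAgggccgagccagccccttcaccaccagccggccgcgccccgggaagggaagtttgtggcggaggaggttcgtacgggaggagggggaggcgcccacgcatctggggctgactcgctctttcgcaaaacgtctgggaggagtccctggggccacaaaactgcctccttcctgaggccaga
MAFF and EPHA2 each hold a CRE and, nearer the start, a CIC octamer, with a wider gap between them in MAFF. EGR1 holds a pair of CArG boxes and DUSP6 a CIC octamer close to its start. Among the named shared genes 24 falls and 14 rises had a window. A CIC octamer was in 4 of these falls and 0 of these rises, a CRE in 3 and 1 and an AP-1 site in 1 and 0. For the CArG box the numbers were 2 and 2, for the ETS site 1 and 2 and for the E box 2 and 1. Such motifs were thus found in rises too, and a match is a description of the letters in a window.

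The kinase cascade itself did not move as a group in either direction. Of its 16 members tested, none was called in both lines, 9 were called in KHM-5M only and 7 in neither, and the median average effect was -0.01. Over all 16218 genes tested, 7663 were called in KHM-5M only and 7999 in neither, so these counts do not set the cascade apart. MAP2K1, which encodes MEK1, fell in KHM-5M (-0.79 ± 0.07) with an effect of -0.17 ± 0.07 in TTA-1. Of 15 other ETS factors and CIC partners, 2 fell in both lines and 1 rose in both, beside 1.36% and 0.765% of all genes tested. ETS1 (-0.38 ± 0.07 in KHM-5M and -0.60 ± 0.07 in TTA-1) and ELK3 (-0.60 ± 0.08 in KHM-5M and -0.72 ± 0.08 in TTA-1) fell. ATXN1, whose product is a partner of CIC, rose (1.02 ± 0.08 in KHM-5M and 0.36 ± 0.08 in TTA-1). The ATXN1 call was lost without TTA-1 DMSO replicate 1 or 3 or TTA-1 GDC-0994 replicate 1 or 2 or 3 or with limma on FPKM (0.0589 to 0.108).

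Of 19 integrin and laminin genes tested, 6 fell in both lines and 1 rose in both, beside 1.36% and 0.765% of all genes tested, with a median average effect of -0.20. ITGA3, the laminin-binding integrin alpha 3 gene, had 377, 341 and 326 CPM with GDC-0994, against 701, 722 and 729 CPM with DMSO in KHM-5M. In TTA-1 the libraries gave 126, 123 and 119 CPM with GDC-0994, against 288, 226 and 256 CPM with DMSO. Every GDC-0994 library was below every DMSO library of its line, with effects of -1.04 ± 0.08 in KHM-5M and -1.06 ± 0.08 in TTA-1 (larger adjusted p = 8.64e-07) with a difference of 0.02, 95% interval -0.23 to 0.26. LAMB3, a chain of the basement membrane protein laminin-332, fell with effects of -2.64 ± 0.07 in KHM-5M and -0.78 ± 0.07 in TTA-1 (larger adjusted p = 3.16e-06). Also lower in both were ITGA6, ITGB5 and the hyaluronan receptor gene CD44. The hemidesmosome collagen gene COL17A1, among the falls with the largest effects, had 0.211, 0.277 and 0.123 CPM with GDC-0994, against 5.53, 5.37 and 4.35 CPM with DMSO in KHM-5M. For TTA-1 the values were 0.333, 1.003 and 0.484 CPM with GDC-0994, against 3.45, 2.76 and 3.66 CPM with DMSO. The treated libraries were close to 0 in both lines, and the effects were -4.57 ± 0.35 in KHM-5M and -2.42 ± 0.32 in TTA-1 (larger adjusted p = 0.000286).

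Of 16 receptor tyrosine kinase genes, AXL, FGFR1 and EPHB2 fell in both lines and none rose in both, beside 1.36% and 0.765% of all genes tested. AXL, the gene of the GAS6 receptor, fell with effects of -0.41 ± 0.07 in KHM-5M and -0.54 ± 0.07 in TTA-1 (larger adjusted p = 0.000411) and FGFR1 with effects of -0.56 ± 0.08 in KHM-5M and -0.36 ± 0.08 in TTA-1, and the FGFR1 call was lost without TTA-1 DMSO replicate 1 or 3 or TTA-1 GDC-0994 replicate 2 or 3 (0.059 to 0.105). Of 16 growth factor genes, PDGFA fell in both, again beside 1.36% of all genes tested. Its effects were -1.30 ± 0.13 in KHM-5M and -0.88 ± 0.16 in TTA-1 (larger adjusted p = 0.00543), a call lost with 1 model per line (0.055). In the urokinase and metalloproteinase list 3 of 16 members fell in both, beside the same 1.36%. Among them were TGM2 and PLAUR, the urokinase receptor gene (-1.20 ± 0.07 in KHM-5M and -0.58 ± 0.09 in TTA-1). TGM2 (ENSG00000198959, chr20:38127387-38166578), which encodes a protein-crosslinking transglutaminase, had 172, 162 and 144 CPM in the GDC-0994 libraries, against 2251, 2262 and 2124 CPM in the DMSO libraries of KHM-5M. In TTA-1 it had 31.3, 28.7 and 26.9 CPM in the GDC-0994 libraries, against 149, 117 and 124 CPM in the DMSO libraries. The groups were far apart in each line, and TGM2 fell with effects of -3.80 ± 0.10 in KHM-5M and -2.17 ± 0.10 in TTA-1 (larger adjusted p = 9.13e-10).

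NT5E, which encodes CD73, the surface enzyme that forms adenosine from AMP, had 43.7, 45.98 and 40.01 CPM with GDC-0994, against 414, 409 and 406 CPM with DMSO in KHM-5M. TTA-1 cells had 4.73, 3.81 and 4.701 CPM with GDC-0994, against 18.7, 23.7 and 19.996 CPM with DMSO. It fell with effects of -3.24 ± 0.09 in KHM-5M and -2.23 ± 0.12 in TTA-1 (larger adjusted p = 7.13e-09). GPR3, a receptor gene that raises cyclic AMP, fell with effects of -3.93 ± 0.23 in KHM-5M and -1.98 ± 0.31 in TTA-1, and MYEOV, a gene near CCND1 on chromosome 11, with effects of -4.56 ± 0.15 in KHM-5M and -1.55 ± 0.12 in TTA-1 (larger adjusted p = 0.00137 and 8.64e-07). Of 20 YAP and TEAD target genes, CTGF (-1.37 ± 0.08 in KHM-5M and -0.59 ± 0.09 in TTA-1), AMOTL1 and AXL fell in both lines and none rose in both, while CYR61 (0.69 in KHM-5M and -0.47 in TTA-1) and ANKRD1 (0.60 in KHM-5M and -0.36 in TTA-1) were called in opposite directions. The shares over all genes tested were 1.36% for falls, 0.765% for rises and 0.382% for opposite calls.

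The replication and mitosis lists held no shared member, although CCND1 and MYC, which promote proliferation, fell in both lines. All 39 tested DNA replication and E2F genes and all 34 tested mitosis genes fell in KHM-5M, beside 25.1% of all genes tested. None of either list was called in TTA-1, where 2.24% of all genes fell and 1.18% rose. Their median effects there were -0.01 and 0.06. The ribosome assembly list had 30 of 32 members fall in KHM-5M, again beside 25.1%, and none called in TTA-1. Among 18 G1 cyclins, kinases and inhibitors, a list that does not hold CCND1, 15 were called in KHM-5M only, as were 7663 of all 16218 genes. CCNG2, an unusual cyclin gene linked to cell-cycle exit, rose in both lines by 1.02 ± 0.12 in KHM-5M and 0.69 ± 0.16 in TTA-1 (larger adjusted p = 0.0229), a call lost without TTA-1 DMSO replicate 1 or 3 or TTA-1 GDC-0994 replicate 1 or 3 or with limma on FPKM (0.0506 to 0.148). These lists had median average effects of -1.22 for replication and -1.05 for mitosis, so the average alone would have placed them with the shared falls.

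In the BCL2 family, which sets the threshold for apoptosis, 2 of 15 members fell in both lines and 1 rose in both, beside 1.36% and 0.765% of all genes. BCL2L1, the gene of the survival protein BCL-XL, had 94.97, 91.2 and 84.4 CPM with GDC-0994, against 136, 132 and 139.9 CPM with DMSO in KHM-5M. The TTA-1 values were 44.2, 37.2 and 33.9 CPM with GDC-0994, against 77.9, 50.97 and 76.3 CPM with DMSO. The groups did not overlap, and it fell with effects of -0.59 ± 0.13 in KHM-5M and -0.83 ± 0.13 in TTA-1 (larger adjusted p = 0.00165). MCL1, another survival gene, fell with effects of -0.26 ± 0.06 in KHM-5M and -0.26 ± 0.07 in TTA-1, but the call was lost without KHM-5M DMSO replicate 2 or KHM-5M GDC-0994 replicate 2 or TTA-1 DMSO replicate 3 or TTA-1 GDC-0994 replicate 1 or 2 or 3 (0.0529 to 0.13). BMF, the gene of a BH3-only killer protein, had 193, 188 and 159 CPM with GDC-0994, against 8.79, 6.29 and 10.6 CPM with DMSO in KHM-5M. In TTA-1 the libraries gave 4.13, 4.41 and 3.87 CPM with GDC-0994, against 1.89, 1.18 and 2.33 CPM with DMSO. Both lines separated the groups, and the rise was larger in KHM-5M, with effects of 4.39 ± 0.16 in KHM-5M and 1.19 ± 0.25 in TTA-1 (larger adjusted p = 0.0126), with a called difference of 3.20 (adjusted p = 7.69e-07). The BMF call was lost without TTA-1 GDC-0994 replicate 2 or with limma on FPKM (0.0573 to 0.0998) and with 1 model per line (0.0538).

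**Figure D4:**
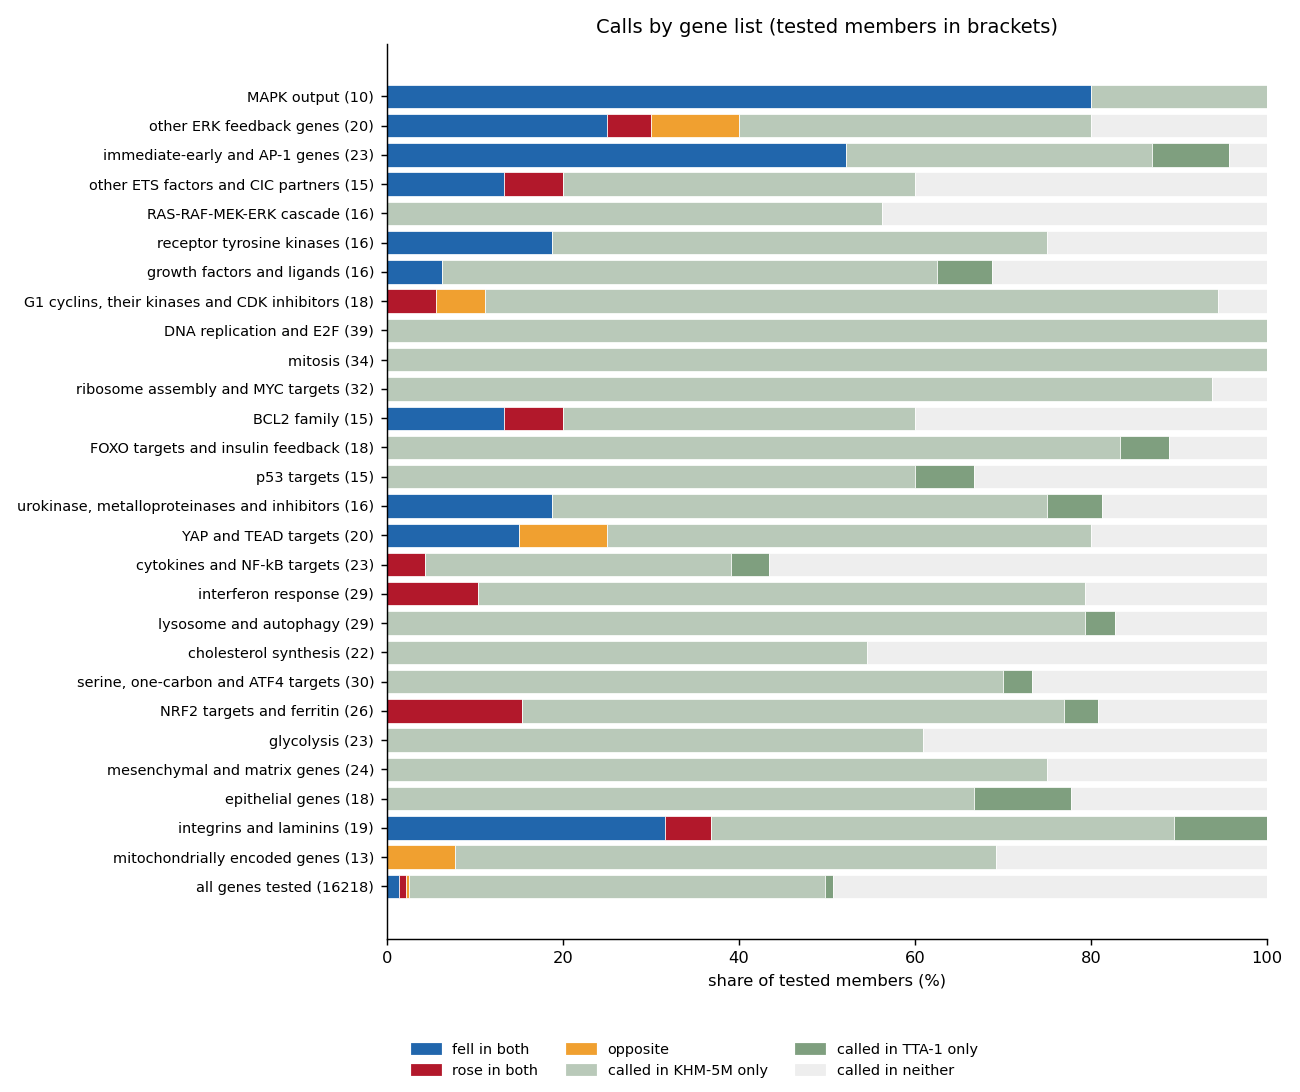
Share of tested members (horizontal axis, %) of 27 gene lists and of all 16218 genes tested that fell in both lines, rose in both, were called in opposite directions, were called in 1 line only, or were called in neither. Blue fills 8 of 10 MAPK output genes and 12 of 23 immediate-early genes, while the replication and mitosis bars hold KHM-5M calls only.

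The rises numbered 124, against 220 falls. ZSCAN31 (ENSG00000235109, chr6:28324693-28356271, minus strand), a zinc-finger gene, had the largest smaller-of-the-2 effects among protein-coding rises averaging 1 CPM or more in each line's GDC-0994 libraries, with 115, 107 and 123 CPM in the GDC-0994 libraries, against 13.6, 12.8 and 15.4 CPM in the DMSO libraries of KHM-5M. For TTA-1 the values were 16.2, 15.7 and 19.4 CPM in the GDC-0994 libraries, against 5.404, 7.43 and 7.51 CPM in the DMSO libraries. Both lines separated the groups, which the choice of this gene required. ZSCAN31 rose by 3.05 ± 0.12 in KHM-5M and 1.33 ± 0.13 in TTA-1 (larger adjusted p = 1.72e-05). C3 (ENSG00000125730, chr19:6677704-6730562, minus strand), the central complement component gene, had 201, 205 and 194 CPM with GDC-0994, against 35.1, 32.2 and 40.7 CPM with DMSO in KHM-5M. In TTA-1 it had 8.601, 10.5 and 10.3 CPM with GDC-0994, against 4.62, 3.35 and 3.97 CPM with DMSO. It rose by 2.47 ± 0.10 in KHM-5M and 1.30 ± 0.14 in TTA-1 (larger adjusted p = 3.52e-05). SAMD9L, an interferon-inducible growth inhibitor gene, rose by 1.37 ± 0.22 in KHM-5M and 1.23 ± 0.24 in TTA-1 (larger adjusted p = 0.00766), with a difference between lines of 0.13, 95% interval -0.57 to 0.83.

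Further rises were ITGB8, an integrin gene whose product activates latent TGF-beta, by 1.99 ± 0.12 in KHM-5M and 1.18 ± 0.22 in TTA-1, SUSD2, a membrane protein gene, by 4.14 ± 0.35 in KHM-5M and 1.20 ± 0.26 in TTA-1. ADAMTS15, a secreted protease gene, rose by 3.40 ± 0.18 in KHM-5M and 1.11 ± 0.27 in TTA-1, and FILIP1L, the gene of a filamin-associated protein, by 3.35 ± 0.14 in KHM-5M and 0.70 ± 0.15 in TTA-1. SH3BGRL rose by 1.19 ± 0.09 in KHM-5M and 1.23 ± 0.25 in TTA-1, RAB17, an epithelial vesicle traffic gene, by 1.37 ± 0.25 in KHM-5M and 1.27 ± 0.32 in TTA-1, and HRCT1 by 1.26 ± 0.36 in KHM-5M and 1.26 ± 0.32 in TTA-1. The ITGB8 call was lost with limma on log2(FPKM + 1), with a larger adjusted p of 0.349 to 0.391. Many of these were weakly expressed in at least 1 line and their calls rested on few libraries. The larger adjusted p passed 0.05 for SUSD2 without TTA-1 GDC-0994 replicate 1 (0.0776), for ADAMTS15 without TTA-1 DMSO replicate 3 or TTA-1 GDC-0994 replicate 2 or 3 or with limma on FPKM (0.132 to 0.161), for FILIP1L without TTA-1 DMSO replicate 3 or TTA-1 GDC-0994 replicate 3 (0.0652 to 0.07). It did so for SH3BGRL without TTA-1 DMSO replicate 1 or TTA-1 GDC-0994 replicate 3 (0.0511 to 0.0616), for RAB17 without KHM-5M DMSO replicate 1 or 2 or KHM-5M GDC-0994 replicate 2 or TTA-1 DMSO replicate 3 or TTA-1 GDC-0994 replicate 1 or 2 or 3 or with thinning (0.0509 to 0.172) and for HRCT1 without KHM-5M DMSO replicate 2 or 3 or KHM-5M GDC-0994 replicate 2 or TTA-1 DMSO replicate 1 or 3 or TTA-1 GDC-0994 replicate 2 or 3 (0.0524 to 0.196).

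**Figure D5:**
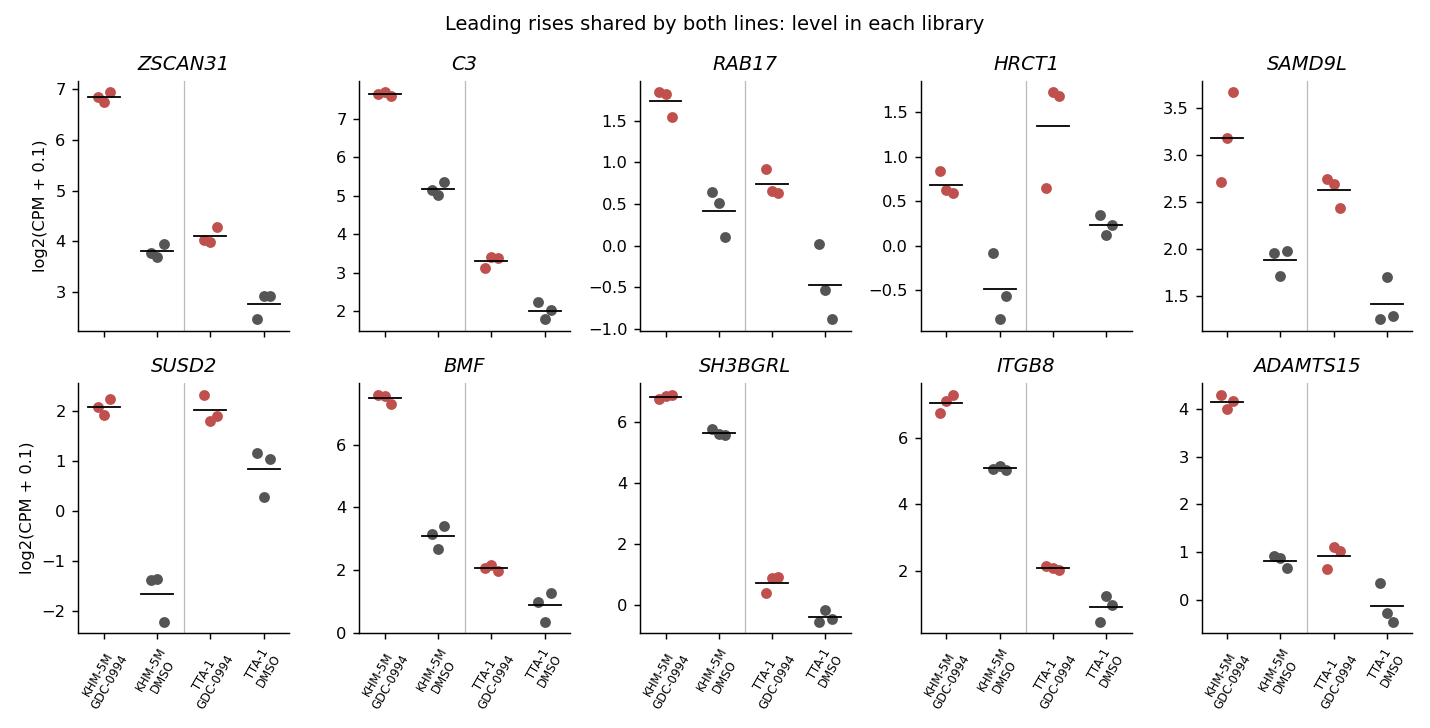
Level in each library, as log2(CPM + 0.1), of the 10 protein-coding shared rises averaging 1 CPM or more in each line's GDC-0994 libraries and the largest smaller-of-the-2 effects, drawn as for the falls, with GDC-0994 libraries in red and DMSO libraries in grey. Only genes with no overlap between GDC-0994 and DMSO libraries in either line were eligible. The GDC-0994 points of a line therefore lie above its DMSO points in each panel. An example is C3, at 194.1 to 205.4 CPM with GDC-0994 and 32.2 to 40.7 CPM with DMSO in KHM-5M.

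The NRF2 target list, genes of oxidant and xenobiotic defence, had 4 shared rises among 26 tested members and no shared falls, beside 0.765% of all genes that rose in both, with a median average effect of 0.38. AKR1C2, an aldo-keto reductase gene that clears reactive carbonyls and steroids, had 7.28, 6.197 and 6.57 CPM with GDC-0994, against 0.113, 0.692 and 0.573 CPM with DMSO in KHM-5M. TTA-1 cells had 1307, 1233 and 1358 CPM with GDC-0994, against 706, 725 and 729.7 CPM with DMSO. The starting levels of the 2 lines differed greatly, and AKR1C2 rose by 3.85 ± 0.23 in KHM-5M and 0.85 ± 0.09 in TTA-1 (larger adjusted p = 4.04e-05). AKR1B10 rose by 2.33 ± 0.31 in KHM-5M and 1.01 ± 0.12 in TTA-1, AKR1C3 by 2.24 ± 0.07 in KHM-5M and 0.46 ± 0.06 in TTA-1 and the glutathione reductase gene GSR by 0.54 ± 0.07 in KHM-5M and 0.30 ± 0.07 in TTA-1. AKR1C2 and AKR1C3 are close in sequence to each other and to other AKR1C genes, so reads shared between them make their separate values uncertain.

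Of 29 interferon response genes tested, 3 rose in both lines, beside 0.765% of all genes, and none fell in both. A further 20 were called in KHM-5M only, as were 7663 of all 16218 genes, and the median average effect was 0.45. IFI44L rose by 1.65 ± 0.18 in KHM-5M and 0.89 ± 0.17 in TTA-1 and PARP9, an ADP-ribosyltransferase family gene, by 0.71 ± 0.09 in KHM-5M and 0.53 ± 0.09 in TTA-1 (larger adjusted p = 0.00722 and 0.00431). The PARP9 call was lost with 1 model per line (0.0564). The third was IFIH1, the gene of the RNA sensor MDA5. SOD2, the mitochondrial superoxide dismutase gene, was the 1 shared member among 23 cytokine and NF-kB targets, beside 0.765% of all genes that rose in both. It rose by 0.48 ± 0.11 in KHM-5M and 0.50 ± 0.10 in TTA-1, and the call was lost without TTA-1 DMSO replicate 3 or TTA-1 GDC-0994 replicate 3 (0.0716 to 0.0746). No member of the FOXO, p53, lysosome, cholesterol, serine and ATF4, glycolysis, mesenchymal or epithelial lists was shared or called in opposite directions. CDKN1A, a p53 target, was counted with the CDK inhibitors, as CCNG2 was with the cyclins and BMF with the BCL2 family.

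The 62 genes called in opposite directions were the counterpart of the shared set. CDKN1A, which encodes the CDK inhibitor p21, had 47.99, 49.2 and 43.02 CPM with GDC-0994, against 22.9, 22.2 and 23.8 CPM with DMSO in KHM-5M. The TTA-1 values were 7.47, 8.22 and 6.36 CPM with GDC-0994, against 16.9, 14.9 and 15.5 CPM with DMSO. The gene rose in KHM-5M and fell in TTA-1, with effects of 1.03 ± 0.10 in KHM-5M and -1.10 ± 0.12 in TTA-1 (larger adjusted p = 2.77e-05). STC1, the stanniocalcin-1 gene, went the other way, with 2.06, 2.601 and 2.95 CPM with GDC-0994, against 12.9, 13.6 and 12.4 CPM with DMSO in KHM-5M. In TTA-1 the libraries gave 1.6003, 2.14 and 2.49 CPM with GDC-0994, against 1.04, 0.658 and 0.568 CPM with DMSO. Its effects were -2.36 ± 0.19 in KHM-5M and 1.45 ± 0.28 in TTA-1, and its call was lost without TTA-1 DMSO replicate 3 (0.0516). Likewise lower in KHM-5M and higher in TTA-1 were the ribosomal protein gene RPS23 (-0.48 ± 0.10 in KHM-5M and 0.85 ± 0.10 in TTA-1), whose pseudogenes may share its reads, and the mitochondrial ATP synthase gene MT-ATP8 (-0.93 ± 0.15 in KHM-5M and 0.91 ± 0.14 in TTA-1), which overlaps MT-ATP6 on the mitochondrial genome. Of 13 mitochondrially encoded genes tested, 8 rose in KHM-5M, beside 24.6% of all genes, and MT-ATP8 was the 1 that fell. It was also the 1 member called in TTA-1. NANOS1, the gene of an RNA-binding repressor, rose in KHM-5M and fell in TTA-1 (1.81 ± 0.16 in KHM-5M and -0.70 ± 0.15 in TTA-1), a call lost without TTA-1 DMSO replicate 1 or TTA-1 GDC-0994 replicate 2 or 3 (0.0556 to 0.0897).

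Among the 8 shared falls whose difference was called with the larger fall in TTA-1, besides EGR1, were genes chosen after their values were seen. KCNJ12, a potassium channel gene, had 5.85, 5.59 and 4.91 CPM with GDC-0994, against 7.78, 8.54 and 8.54 CPM with DMSO in KHM-5M. For TTA-1 the values were 4.801, 4.68 and 5.46 CPM with GDC-0994, against 16.3, 15 and 15.7 CPM with DMSO. Its effects were -0.60 ± 0.13 in KHM-5M and -1.65 ± 0.13 in TTA-1 (larger adjusted p = 0.000999), and those of PODXL, an anti-adhesive sialomucin gene, were -0.37 ± 0.06 in KHM-5M and -0.97 ± 0.06 in TTA-1. ANTXR2, an anthrax toxin receptor gene, fell with effects of -0.90 ± 0.08 in KHM-5M and -1.41 ± 0.08 in TTA-1. LTBP3, ARL2BP and RASGRF1 were also among them. RASGRF1 had 0 CPM in each TTA-1 GDC-0994 library and at most 0.379 CPM in those with DMSO, so its drop there was near the detection limit.

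Levels and base composition are given as descriptions, since the level in DMSO enters the call itself. Falls had a median of 73.1 CPM in KHM-5M DMSO cells and 39.1 CPM in TTA-1 DMSO cells, rises had 17.5 CPM and 23.1 CPM, and all genes tested had 17 CPM and 15.5 CPM. Median GC content was 55.8% for shared falls and 45.8% for shared rises, against 48.3% overall. These values are close to those of all TTA-1 calls, with a GC content of 56.9% for TTA-1 falls and 45.6% for TTA-1 rises. Of the shared falls 69.1% were higher in KHM-5M DMSO than in TTA-1 DMSO libraries and of the shared rises 37.9%, as were 63.2% of TTA-1 falls, 39.1% of TTA-1 rises and 51% of all genes. The TTA-1 effect itself correlated with GC content across 16211 genes at -0.179, the average effect at -0.124 and the KHM-5M effect at -0.0485, and the part of GC content in these counts was not tested beyond 1 alternative. With the trends on GC content and gene length removed per library, 337 genes fell and 260 rose in both lines, and 204 of the 220 falls and 120 of the 124 rises were still called.

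At the threshold itself the calls shade off. Just inside lay PDE5A (effects of 0.49 in KHM-5M and 0.75 in TTA-1), AHRR (1.64 and 0.67) and NXT1 (-1.25 and -0.37), and just outside PTDSS2 (-0.26 and -0.32), RFLNB (-1.42 and -0.28) and UBASH3B (-2.76 and -0.51). The larger adjusted p was 0.0494 to 0.0496 for the 3 inside and 0.0506 for each of the 3 outside. Without any 1 library in turn, 112 of the 220 falls and 41 of the 124 rises were called every time. Under all 26 alternatives other than the fold threshold, 84 falls and 29 rises were called every time, among them EGR1, DUSP5, SPRY4, PHLDA1, ETV4, ETV5, CCND1, EPHA2, FOSL1, MYC, NT5E, TGM2, ITGA3, LAMB3 and AXL for the falls, and ZSCAN31, C3, SAMD9L, AKR1C2, AKR1C3 and AKR1B10 for the rises. Of the 344 shared genes, 0 had the other sign in either line under any of these alternatives in which they were tested. The stricter filter tested 323 of them and limma on filtered FPKM 327. The genes were chosen by calls in these same libraries, which largely fixes the sign, so this count lends no support.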

How the data were processed

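RNA was sequenced from 12 libraries of 2 cell lines, with 3 libraries in each of 4 groups. The authors deposited raw read counts per gene and FPKM values for 58735 genes. Per the submitters' processing notes, the tools were CASAVA, HISAT2 2.0.5 and featureCounts 1.5.0-p3 with GRCh38, with no role or order stated, and strand use in counting is not given in the sources used here. Gene positions in the deposited table equal those of GENCODE 29 for 58735 of 58735 IDs, and 27 symbols turned into dates were restored from it.

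Counts of 16218 genes passing edgeR's filter (minimum count 10, minimum total 15, 4 groups) were scaled by TMM and fitted with edgeR 4.0.16's quasi-likelihood test in R 4.3.3 over all 12 libraries, with 8 residual degrees of freedom. The contrasts were each line's GDC-0994 effect over DMSO, their average and their difference (KHM-5M minus TTA-1). Every adjusted p is from edgeR, Benjamini-Hochberg adjusted over all genes tested and called below 0.05, and the larger adjusted p of a shared gene is the larger of its 2 lines' values. Effects are log2 with SE, and CPM values are TMM-scaled and not per length, so they compare libraries and not genes. Both lines' comparisons share no library.

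The named genes were of 4 kinds. From protein-coding shared genes with no overlap between groups and a mean of at least 1 CPM came the 10 falls and 10 rises with the largest smaller effect and the 6 of each with the largest average. To these were added all members of 4 ERK lists whatever their call, up to 2 shared members per direction from each other list, and 6 genes called in opposite directions per direction. Members and lists were chosen with earlier results of these data known. Alternatives covered scaling, filters, DESeq2 1.42.0, limma 3.58.1 on log2(FPKM + 1) and log2(FPKM + 0.1), 1 model per line, the replicate block, thinning, GC content and length, a fold threshold and leaving out each library. The procedure was tested on simulated data. A few list members are not reported here.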

Additional observations from a re-analysis of the deposited data

Results flagged for a closer look

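The GDC-0994 effect differed between the lines, by edgeR's test of the difference at an adjusted p below 0.05, for 64 of the genes named, and each value that follows is the KHM-5M minus TTA-1 difference of log2 effects. A negative difference in a gene that fell means a larger fall in KHM-5M.

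Among genes that fell in both lines the difference was 4.37 for EGR1, -2.15 for COL17A1, -1.01 for NT5E, -1.63 for TGM2, -2.06 for DUSP6 and -1.95 for GPR3. It was -0.86 for PHLDA1, -1.39 for SPRY4, -1.14 for MAFF, -4.01 for ETV4, -3.01 for MYEOV and -2.12 for DUSP4. For the next genes it was -2.04 for CCND1, -0.73 for EPHA2, -2.90 for ETV5, -0.55 for DUSP7, -0.38 for SPRED1 and -1.45 for FOS. Further values were -2.46 for FOSL1, -0.67 for IER5, -1.06 for KLF4, -0.61 for PLAUR, -0.78 for CTGF and -1.86 for LAMB3.

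Among genes that rose in both lines the difference was 1.71 for ZSCAN31, 1.18 for C3, 2.94 for SUSD2, 3.20 for BMF, 0.80 for ITGB8 and 2.29 for ADAMTS15. It was 2.997 for AKR1C2, 2.65 for FILIP1L, 0.65 for ATXN1, 0.76 for IFI44L and 1.31 for AKR1B10.

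Among genes called in opposite directions the difference was 0.73 for DUSP1, 1.04 for TRIB1, 2.12 for CDKN1A, 3.23 for PCSK1N, 2.51 for NANOS1 and 1.43 for C1QTNF1. It was 1.49 for TMEM102, 1.28 for DNAJC4, -3.81 for STC1, -2.80 for RGS9, -1.84 for MT-ATP8 and -1.73 for SYNE2. For the next genes it was -1.88 for COBLL1 and -1.33 for RPS23. Only CDKN1A, MT-ATP8 and RPS23 among them kept the opposite call whichever library was left out. RGS9, for example, lost it under 9 alternatives.

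Among genes of the ERK lists called in 1 line or in neither the difference was -2.47 for SPRY2, 0.35 for DUSP16, -1.13 for SPRY1, -0.94 for SPRED2, 0.57 for FOSL2 and 0.52 for JUNB. It was 0.97 for JUND, 0.43 for MAFK, 1.16 for ATF3, -0.84 for KLF6, 0.95 for ZFP36 and -0.69 for HRAS. For the next genes it was -0.78 for KSR1, -0.62 for MAP2K1 and -0.48 for RPS6KA1.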

How the results depend on the processing

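No shared gene changed sign in either line under any alternative in which it was tested, which the choice of genes by their calls in the same libraries largely fixes. The number of shared genes varied with TTA-1, the line with few calls. The counts given are calls in TTA-1, then genes that rose in both lines, fell in both lines and were called in opposite directions, beside 556, 124, 220 and 62. DESeq2's Wald test gave 915, 203, 325 and 121, no filter gave 1206, 206, 468 and 125, 1 model per line gave 212, 46, 106 and 14, and removal of GC and length trends gave 993, 260, 337 and 160. A log2 fold change of at least 1 gave 116, 19, 46 and 7, with 964 average calls, 2598 in KHM-5M and 1739 differences. Adjusting the larger p over genes gave 83 rises, 171 falls and 30 opposite genes. Leaving out 1 library at a time gave 5539 to 7349 average calls, 7018 to 9008 in KHM-5M, 259 to 2620 in TTA-1 and 3768 to 5186 differences. It gave 56 to 506 rises, 129 to 882 falls and 26 to 404 opposite genes, and the TTA-1, rise, fall and opposite counts were lowest without TTA-1 GDC-0994 replicate 3 and highest without TTA-1 DMSO replicate 2. Of 74 named genes called in both lines, 31 lost the call without 1 library and 39 kept it under every alternative in which they were tested, the fold threshold left out. The causes of these shifts were not tested. With the replicate number as a block, 93 genes rose and 218 fell in both lines, and 9 of the named genes lost the call. Deviations of same-numbered libraries correlated at -0.0453 to 0.0537 and of others at -0.105 to 0.124. These values show no pairing by number, but they do not settle whether the libraries were paired. Low counts in TTA-1, as for EGR1 and RASGRF1 with GDC-0994, limit what can be said of their size.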

Other observations

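Some gene groups outside the lists were looked at after the values were seen, so their counts are descriptions only. Complement genes gave 5 shared rises among 21 tested, beside 0.765% of all genes that rose in both, 1 member called in opposite directions and a median average effect of 1.02 beside 0.01 over all genes. C1R and C1S, the proteases that start the classical pathway, rose by 1.75 ± 0.14 in KHM-5M and 0.81 ± 0.12 in TTA-1 and by 3.04 ± 0.18 in KHM-5M and 0.96 ± 0.11 in TTA-1. CLU, which encodes the complement inhibitor and chaperone clusterin, rose by 1.45 ± 0.10 in KHM-5M and 0.58 ± 0.10 in TTA-1, and C4BPB by 2.98 ± 0.52 in KHM-5M and 0.69 ± 0.17 in TTA-1, beside C3. C4BPB was near the detection limit in the KHM-5M DMSO libraries, at 0.226, 0.0577 and 0 CPM (larger adjusted p = 0.0302). In a list of 20 tested exchange factor, GTPase-activating protein and RAS effector genes, RASGRF1, RASA3, RGL2 and RIN1 fell in both lines. This stands beside 1.36% of all genes, and none rose in both. RASGRF1 was near the detection limit in TTA-1. RASA3, a GTPase-activating protein gene, had effects of -1.51 ± 0.12 in KHM-5M and -0.51 ± 0.13 in TTA-1 and RIN1, a RAS effector gene, of -0.52 ± 0.12 in KHM-5M and -0.83 ± 0.14 in TTA-1.

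Of 19 Notch genes, HES1, a Notch target (-3.86 ± 0.29 in KHM-5M and -1.40 ± 0.22 in TTA-1), NRARP, a feedback inhibitor (-1.91 ± 0.19 in KHM-5M and -0.53 ± 0.13 in TTA-1), and DNER, a ligand gene (-2.13 ± 0.20 in KHM-5M and -1.21 ± 0.21 in TTA-1), fell in both lines, again beside 1.36% of all genes. Of 17 latent TGF-beta binding protein, SMAD and related genes, LTBP2, LTBP3, SMAD3 and SMURF2 fell in both and 1 member went opposite ways, beside 1.36% and 0.382% of all genes. SMAD3 had effects of -0.49 ± 0.06 in KHM-5M and -0.41 ± 0.06 in TTA-1. Among the 16 shared genes that were not protein coding, MIR100HG, host of a microRNA cluster, had effects of -2.16 ± 0.17 in KHM-5M and -1.23 ± 0.15 in TTA-1 and LINC00941 of -1.79 ± 0.18 in KHM-5M and -1.25 ± 0.22 in TTA-1, while LINC02009 rose by 1.62 ± 0.20 in KHM-5M and 1.38 ± 0.22 in TTA-1. The antisense gene GAS6-AS1 rose by 2.21 ± 0.43 in KHM-5M and 2.31 ± 0.60 in TTA-1 (larger adjusted p = 0.0435). Its DMSO libraries were near the detection limit, at 0.282, 0.173 and 0.344 CPM in KHM-5M and 0.0651, 0.0658 and 0.189 CPM in TTA-1. Reads from GAS6-AS1 and its sense partner cannot be told apart where strand was not used in counting.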
